A study of Penicillium oxalicum with 9 samples.

Results

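The comparison set the mycelium of a prmt3 deletion mutant of the filamentous fungus Penicillium oxalicum against that of its background strain, 24 h after both had been moved onto Avicel, a microcrystalline cellulose. It held 6 of the 9 libraries of the series, 3 of Δprmt3 and 3 of Δku70, and was made over 9363 annotated genes. Both strains descend from isolate HP7-1, lack ku70 (its loss favours targeted gene replacement) and carry the hygromycin marker hph. In Δprmt3 the prmt3 gene was in addition replaced by a G418 resistance marker, so the loss of prmt3 and the presence of that marker cannot be told apart here. The sample labels give the mutant as a knockout of POX03070 and the background as WT. All 6 cultures were treated alike, with 24 h in medium containing 1% glucose followed by 24 h in medium containing 2% Avicel at 28°C, and the study describes the libraries of a strain as biological replicates. The labels do not say whether more than 1 mutant clone was used. The other 3 libraries of the series came from a cxrA deletion strain, made in the same background and grown alike. They entered the choice of features tested, the library scaling and the estimate of spread.

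PRMT3 belongs to the protein arginine methyltransferases, enzymes that move a methyl group from S-adenosylmethionine onto arginine side chains. In yeasts its homologue binds the small-subunit ribosomal protein Rps2. Saprophytic fungi such as P. oxalicum meet cellulose by secreting cellobiohydrolases, endoglucanases and β-glucosidases, together with enzymes for xylan, mannan, arabinan and pectin, and they import the released sugars through membrane transporters. Fungal genes for one biosynthetic or catabolic route often lie side by side on a chromosome, so the results below are ordered first by enzyme class and then by position.

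Expression was deposited as FPKM, fragments normalised to transcript length and library total, and all levels below are FPKM divided by a library factor from the median of ratios (scaled FPKM). A gene was called higher or lower when its absolute log2 fold change was over 1 and its adjusted p-value from limma with Benjamini-Hochberg adjustment was under 0.05. Log2 fold changes are given with their standard error after ±. Between 9846 and 9971 features were above 0 in a library. Some libraries stood apart for single genes. The unplaced gene POX_u09934 gave 219.5, 14476 and 198 scaled FPKM in Δku70 and 17014, 14941 and 16215 in Δprmt3, so that the second Δku70 library lay near Δprmt3 and the other two did not. It was not called, and without that library it was, with a log2 fold change of 6.26. A locus without a gene identifier behaved alike. In the third Δku70 library several pectin genes were higher than in the other two, and in the first Δku70 library the most strongly raised genes were lower than in the other two. These values are given with the genes concerned.

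Of the annotated genes, 348 (3.72%) were called higher and 696 (7.43%) lower in Δprmt3, 11.2% together. Of 1215 loci without a gene identifier 2.63% were called higher and 8.07% lower, and over all 10578 features 11.1% were called. In a Δku70 library the genes called higher accounted for 4.38% to 5.01% of the FPKM, and in a Δprmt3 library for 17.2% to 18.1%. For the genes called lower the share was 17.3% to 19.1% in a Δku70 library and 3.29% to 4.01% in a Δprmt3 library. These shares describe genes chosen by the comparison itself. For 42.1% of the annotated genes the libraries of the 2 strains did not overlap, so the absence of overlap noted for single genes below is common by itself. In RNA from whole mycelium, fewer cells of a type and less RNA per cell cannot be told apart. Calls did not simply follow the level: with a mean over the 6 libraries of at least 1000 scaled FPKM, 12.8% of 179 genes were called higher and 16.2% lower. Between 100 and 1000 the shares were 5.02% and 8.69%, between 10 and 100 they were 2.88% and 5.96%, and between 1 and 10 they were 5.26% and 11.2%.

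The deleted gene was lost, and the genes directly beside it were not called. The prmt3 gene (POX_b03080) had 35.1, 27.4 and 30.2 scaled FPKM in Δku70 and 0, 0.0475 and 0 in Δprmt3, with no overlap. The labels write POX03070, with no chromosome letter. If that number is read as POX_b03070, the locus tag near prmt3 with the same digits, it names a gene that was still expressed, at 736, 670.4 and 869 scaled FPKM in Δku70 and 184, 206 and 210.0 in Δprmt3 (log2 fold change -1.91 ± 0.12, adjusted p = 1.2e-05). Directly before prmt3, POX_b03079 had 81.1, 80.4 and 84.3 scaled FPKM in Δku70 and 62.8, 70.3 and 66.8 in Δprmt3, and directly after it POX_b03081 had 45.6, 44.5 and 47.2 scaled FPKM in Δku70 and 49.5, 47.5 and 46.5 in Δprmt3. Of the 10 tested genes on each side of prmt3, 3 were called lower, POX_b03070, POX_b03088 and POX_b03090, and 2 were called higher. The call of POX_b03090 was lost, at log2 fold changes from -2.25 to -1.67, without the first or second Δku70 library or the second or the third Δprmt3 library. The 2 raised genes were neighbours, 5 and 6 tested genes before prmt3. POX_b03073, an α-L-fucosidase gene, went from 12.2, 13.5 and 13.7 to 28.9, 37.8 and 28.1 scaled FPKM, and POX_b03074, annotated as a sugar transporter-like major facilitator, went from 25.7, 30.1 and 38.4 to 172, 226 and 142 scaled FPKM (log2 fold change 2.51 ± 0.19, adjusted p = 3.5e-05). POX_b03088 was at 1.89 to 2.41 scaled FPKM in Δku70 and listed at 0 in all 3 Δprmt3 libraries.

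**Figure D1:**
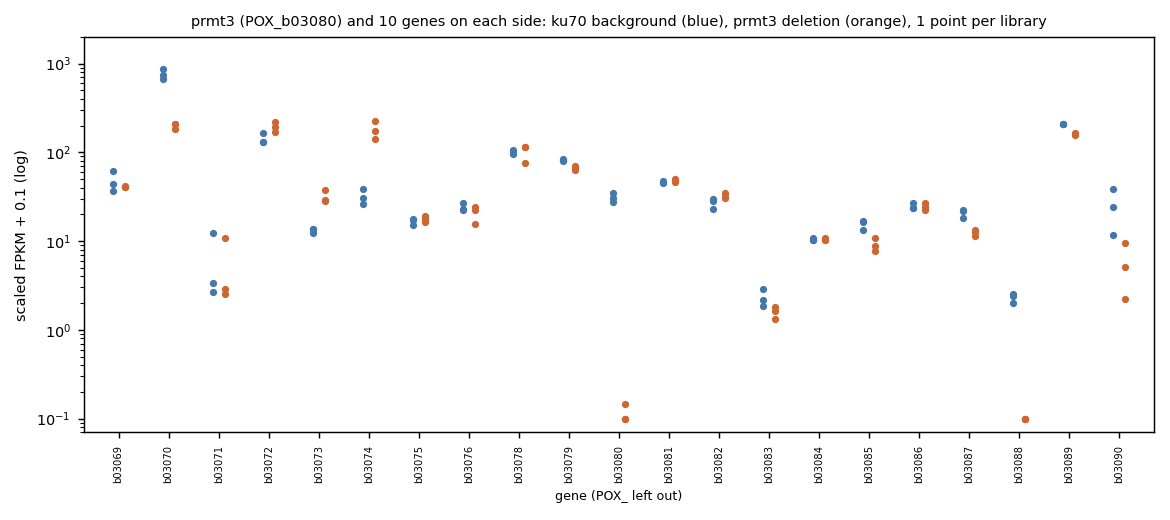
Scaled FPKM plus 0.1 (log axis) of prmt3 (POX_b03080) and the 10 tested genes on each side in chromosomal order, with 1 point per library in blue for Δku70 and orange for Δprmt3. prmt3 dropped to between 0 and 0.0475 scaled FPKM in Δprmt3, while its direct neighbours POX_b03079 and POX_b03081 were not called and POX_b03070, the locus tag with the digits of the label, remained at 184 to 210.0.

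The other arginine methyltransferase genes were not called. POX_f08428, the study's prmt2, had 20.4, 20.5 and 19.7 scaled FPKM in Δku70 and 15.5, 17.2 and 17.4 in Δprmt3 (log2 fold change -0.27 ± 0.10, adjusted p = 0.067). POX_d05270 had a log2 fold change of 0.77 (standard error 0.25), which was 1.05 and called without the first Δprmt3 library, and POX_e06662 one of -0.35 (standard error 0.10).

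Most genes for enzymes that act on the pectin backbone were called higher. The class, polygalacturonases, pectate and pectin lyases, pectinesterases and rhamnogalacturonan enzymes, had 20 tested members, of which 14 were called higher, 2 lower and 4 in neither direction, beside 3.72% and 7.43% of all annotated genes. The median log2 fold change of the 20 was 1.54, and that of all annotated genes was 0.01. The annotations came from lists of genes the study called, and 17 of the 20 were on its list for this very comparison, so their count is not independent evidence. The 3 others, listed only for another mutant that shares the Δku70 libraries, POX_g09254, POX_d05147 and POX_g09173, had log2 fold changes of 0.22, 0.86 and 1.17, and none was called. POX_d05147 was called without the second Δku70 library (1.02), under quantile normalization (1.08) and with a pseudocount of 0.01 (1.22), and POX_g09173 without the third Δku70 library (1.72). Every class below was drawn from the same lists of called genes. A share above that of all annotated genes can come from that choice alone.

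All 7 polygalacturonase genes, whose products hydrolyse the galacturonan chain, were called higher, POX_d05886 not under 4 of the 14 alternative fits. The largest change was in POX_f08259, with 23.3, 18.0 and 38.4 scaled FPKM in Δku70 and 239, 456 and 330.0 in Δprmt3 (log2 fold change 3.71 ± 0.30, adjusted p = 5e-05). Every Δprmt3 library was thus far above every Δku70 library. POX_d04874, the most strongly expressed polygalacturonase gene besides it, went from 35.8, 39.9 and 74.6 to 254, 352 and 345 scaled FPKM (log2 fold change 2.72 ± 0.26, adjusted p = 0.00012). The other 5 were at lower levels, with log2 fold changes from 1.61 in POX_d05886 to 2.57 in POX_b03463. POX_d05886 was not called without the second Δku70 library or the second or the third Δprmt3 library, at 1.25 to 1.55. The single pectate lyase gene, POX_h09413, which cleaves de-esterified pectin without water, went from 10.2, 10.0 and 8.55 to 35.4, 120.4 and 65.5 scaled FPKM (log2 fold change 2.76 ± 0.37, adjusted p = 0.0009). The Δprmt3 libraries differed widely from each other in this gene, and all lay above the Δku70 libraries.

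Other pectin genes moved in both directions. The rhamnogalacturonan acetylesterase gene POX_e07312, which removes acetyl groups from the branched regions of pectin, had 0.998, 0.649 and 0.311 scaled FPKM in Δku70 and 4.67, 11.2 and 10.4 in Δprmt3 (log2 fold change 3.57 ± 0.43, adjusted p = 0.00048). Of the pectinesterase genes, POX_g08964 and POX_g09102 rose by 1.52 and 1.54 on the log2 scale, and POX_a01166 fell by 2.09, at levels under 3 scaled FPKM. POX_g09102 kept its call only without the third Δku70 or the first Δprmt3 library; without any of the other 4 it was not called, at 1.25 to 1.55. The rhamnogalacturonan hydrolase genes split as well. POX_b02031 rose, from 29.8, 25.4 and 41.3 to 80.0, 88.5 and 108 scaled FPKM, and POX_a00706 fell, from 72.2, 54.3 and 245 to 15.8, 15.6 and 12.1 scaled FPKM (log2 fold change -2.77 ± 0.50, adjusted p = 0.0042). The third Δku70 library was far above the other two for POX_a00706, and without it the log2 fold change was -2.11, still called. Summed over the class, the levels were 295, 264 and 639 in Δku70 and 942, 1551 and 1263 in Δprmt3, so that the third Δku70 library was the highest of its strain and still lay below all Δprmt3 libraries.

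Genes for arabinan and arabinose side chains were called in both directions. Of 12 tested genes, 6 were called higher and 4 lower, beside 3.72% and 7.43% of all annotated genes. On the study's own list were 9 of the 12, and of the 3 others 1 was called. α-L-Arabinofuranosidases release terminal arabinose, and 5 of the 6 genes were called higher. The strongest expressed of them, POX_c03492, had 674, 575 and 998 scaled FPKM in Δku70 and 1339, 1807 and 1400.5 in Δprmt3 (log2 fold change 1.04 ± 0.21, adjusted p = 0.0076). It fell short of the threshold, at 0.87 to 0.99, without the first or second Δku70 or the second Δprmt3 library. The largest change was that of POX_a00012, from 6.53, 5.07 and 6.43 to 13.7, 31.5 and 20.5 scaled FPKM (log2 fold change 1.78), and the exception was POX_h09867, which fell by 1.07 on the log2 scale, and by 0.94 without the third Δku70 library, then not called. Endo-1,5-α-L-arabinosidases cut within the chain, and 2 of their 3 genes were called lower. POX_a01003 went from 11.9, 15.3 and 14.2 to 1.41, 0.831 and 0.657 scaled FPKM (log2 fold change -3.76 ± 0.30, adjusted p = 4.7e-05), and POX_d06099 went from 30.9, 31.5 and 64.1 to 4.47, 8.36 and 6.11 scaled FPKM (log2 fold change -2.68 ± 0.31, adjusted p = 0.00038). The third, POX_a00005, had a log2 fold change of -0.58 and was not called. The genes called exo-α-L-1,5-arabinanases split: POX_a00656, which is not on the study's list for this comparison, rose from 6.53, 6.04 and 5.36 to 13.1, 23.1 and 14.5 scaled FPKM, and POX_b03436 fell from 5.98, 6.39 and 5.92 to 1.40, 1.15 and 3.57 scaled FPKM.

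Part of the genes for xylan and mannan enzymes were called higher. Of 21 xylan genes, 6 were called higher and 1 lower, beside 3.72% and 7.43% of all annotated genes. All 7 calls were among the 7 genes on the study's list, and 0 of the 14 others was called. The largest rise was that of the acetyl xylan esterase gene POX_g09330, which deacetylates the xylan chain, with 15.3, 14.4 and 25.6 scaled FPKM in Δku70 and 66.3, 87.9 and 75.7 in Δprmt3 (log2 fold change 2.09 ± 0.21, adjusted p = 0.00019). The endoxylanase gene POX_a01871 rose from 1170.3, 1072 and 1477 to 3309, 3439 and 3161 scaled FPKM (log2 fold change 1.43 ± 0.19, adjusted p = 0.00079). The one with the highest level, POX_g08543, was not called, at 4058, 3791 and 4704 scaled FPKM in Δku70 and 4999, 5502 and 4852 in Δprmt3 (log2 fold change 0.29 ± 0.16, adjusted p = 0.22). The β-xylosidase gene POX_a01929 rose from 61.1, 72.3 and 46.6 to 125, 133 and 127 scaled FPKM (log2 fold change 1.12, and 0.95, not called, without the third Δku70 library), and its neighbour POX_a01928, a second β-xylosidase gene, had a log2 fold change of 0.94 that did not reach the threshold of 1, except without the second Δku70 or the first Δprmt3 library (1.13 and 1.02) and under quantile normalization (1.02). The 1 xylan gene called lower, the β-xylosidase gene POX_a00185, fell by 1.22 on the log2 scale and was not called when the fit held only the 6 libraries, or without the first or second library of either strain, at -1.24 to -0.95. Of 7 genes for mannan and galactan enzymes, 4 were called higher and 0 lower, beside the same 3.72% and 7.43%. The class as drawn here also counts the α-L-fucosidase gene POX_b03073, 1 of the 4. The 4 were the ones on the study's list. The strongest expressed, the endomannanase gene POX_b01946, had 4716, 5342 and 4379.9 scaled FPKM in Δku70 and 9177, 9758 and 9797 in Δprmt3 (log2 fold change 1.00). It lay at the threshold and was called only without the second Δku70 or the first Δprmt3 library, at 1.07 and 1.03.

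Of 24 cellulose genes, 4 were called higher and 3 lower, beside 3.72% and 7.43% of all annotated genes, and the median log2 fold change was 0.40. All 7 calls were among the 7 genes on the study's list, and none of the 17 others was called. Those 17 carry a term only through the study's list for another mutant. The shares of the class therefore cannot be read as an excess over all annotated genes. The 9 endo-1,4-β-glucanase genes, whose products open the cellulose chain internally, all had log2 fold changes above 0, from 0.09 in POX_h09768 to 1.11 in POX_d04883, the 1 that was called, except that POX_h09768 was at -0.07 on FPKM without further scaling and at -0.15 without the first or the second Δku70 library. POX_d04883 was not called without the first Δprmt3 library (0.92) or without further scaling (0.95). Over all annotated genes 51.3% were above 0. Of these 9 genes, 8 were not on the study's list for this comparison, and their median was 0.70. The most strongly expressed of them, POX_a00764, had 6719, 6102 and 7461 scaled FPKM in Δku70 and 14854, 13577 and 11837 in Δprmt3 (log2 fold change 0.99 ± 0.22, adjusted p = 0.011). Its groups did not overlap, and its log2 fold change passed the threshold of 1 only without the third library of either strain (1.06 and 1.08). The cellobiohydrolase genes POX_d05671 and POX_d04867, whose products release cellobiose from chain ends, had log2 fold changes of 0.03 and 0.18, with standard errors of 0.28 and 0.22, and of -0.63 and -0.25 under quantile normalization. All 3 genes for lytic polysaccharide monooxygenases, copper enzymes that cleave crystalline cellulose by oxidation, lay below 0, POX_g09366 at -0.20, POX_c04131 at -0.75 and POX_b02315 at -1.36, except POX_g09366 at 0.01 without the third Δku70 library, and of the 3 POX_b02315 was called. Without that library POX_c04131 was called (-1.02). β-Glucosidases, which split cellobiose into glucose, went both ways, with 3 of 10 genes called higher and 2 lower. POX_c04019, by far the strongest expressed of the raised ones, had 3089.9, 3419.5 and 2415 scaled FPKM in Δku70 and 8856, 9290.0 and 8832 in Δprmt3 (log2 fold change 1.61 ± 0.26, adjusted p = 0.0024). POX_f08346 went from 650.1, 733 and 427 to 1321, 1460.0 and 1357 scaled FPKM, and POX_a00284 from 73.5, 67.5 and 84.5 to 166, 164 and 129.6 scaled FPKM. The call of POX_c04019 held under all alternatives run. POX_f08346 was called without the second Δku70 library but lost its call without any other single library, at 1.00 without the third Δku70 library and 1.19 to 1.26 without a Δprmt3 library, and POX_a00284 lost it without the second Δku70 or the first or second Δprmt3 library, at 0.95 to 0.97. Of the lowered ones POX_e06772 went from 216, 237 and 219 to 104, 83.3 and 97.4 scaled FPKM, and POX_e06434 was under 2 scaled FPKM in every library and was not called without the first Δku70 library (-1.51). The number of cellulose genes called higher rested on the settings, with 1 without the first Δprmt3 library, 2 without the second and 2 on FPKM without further scaling.

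The small class of β-1,3-glucan and SUN enzymes acts on glucans such as those of the fungal wall. Of its 4 members 1 was called higher and 1 lower, beside 3.72% and 7.43% of all annotated genes. The 2 called are those on the study's list, and 0 of the 2 others was called. The SUN family gene POX_c03714 went from 29.3, 41.5 and 40.7 to 87.4, 105 and 94.1 scaled FPKM (log2 fold change 1.37 ± 0.21, adjusted p = 0.0018). The endo-1,3(4)-β-glucanase gene POX_e06893 went from 43.7, 31.7 and 134 to 16.3, 15.6 and 11.3 scaled FPKM (adjusted p = 0.021), with the third Δku70 library far above the other two, and it was not called without the second or the third Δprmt3 library (-2.06 and -1.83).

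**Figure D2:**
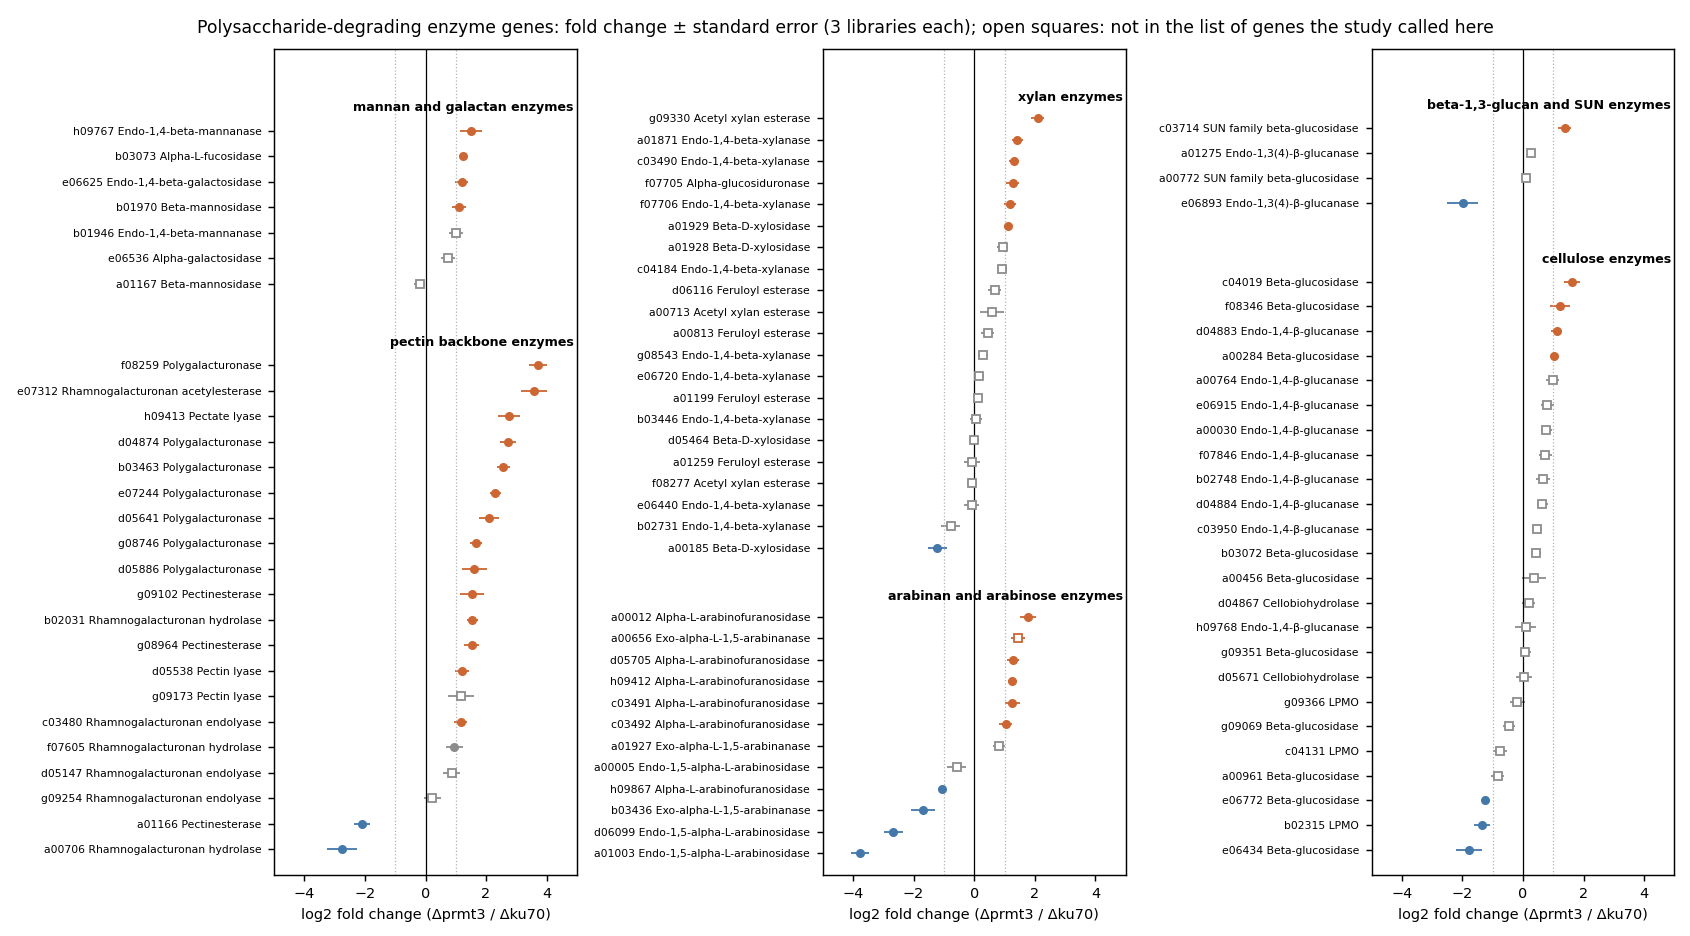
Log2 fold change of Δprmt3 over Δku70 with its standard error for 88 enzyme genes grouped by substrate, with genes called higher in orange, called lower in blue and not called in grey. Filled circles are genes on the study's list for this comparison and open squares are the others; dotted lines mark the threshold of 1. All 7 polygalacturonases lie above 1 and the 3 endo-1,5-α-L-arabinosidases below 0. The 9 endo-1,4-β-glucanases lie above 0, the lowest of them, POX_h09768, at 0.09 here and at -0.07 on FPKM without further scaling.

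Genes annotated as sugar transporters moved in both directions, 13 higher and 13 lower of 41 tested, beside 3.72% and 7.43% of all annotated genes. On the study's list for this comparison were 25 of the 41, and of the 16 others 1 was called. By summed level they were higher in Δprmt3, with 14503, 14834 and 13636 in Δku70 and 29492, 33869 and 29075 in Δprmt3 scaled FPKM, although equal numbers were called in each direction. POX_c04047, at 7962, 8540.1 and 7701 scaled FPKM in Δku70 and 18057, 19314 and 16953 in Δprmt3, made up between 54.9% and 61.2% of that sum in a library (log2 fold change 1.17, and 0.26, not called, under quantile normalization). The largest rise was that of POX_c04204, from 27.0, 27.4 and 40.1 to 129, 323 and 227 scaled FPKM (log2 fold change 2.77 ± 0.31, adjusted p = 0.0003). It was followed by POX_b03074 near prmt3, given above, and by POX_d05540, from 54.3, 37.6 and 36.2 to 191, 201 and 146 scaled FPKM. Most lowered transporter genes were at lower levels: POX_h09727 went from 38.0, 42.0 and 24.0 to 3.34, 1.39 and 2.52 scaled FPKM (log2 fold change -3.83 ± 0.33, adjusted p = 6.9e-05) and POX_a00364 from 32.9, 32.1 and 30.6 to 2.53, 2.36 and 1.84 scaled FPKM (log2 fold change -3.78 ± 0.17, adjusted p = 2.1e-06). The highest value of any of the 13 lowered genes in these libraries was 118 scaled FPKM. Several raised transporter genes sat directly beside an enzyme gene of the classes above. This was so for 5 of the 13 called higher, 1 of the 15 not called and 0 of the 13 called lower. On chromosome VI the transporter gene POX_f07704, the α-glucosiduronase gene POX_f07705 and the endoxylanase gene POX_f07706 were adjacent and all called higher. POX_f07704 went from 212, 273 and 203 to 602, 993 and 688 scaled FPKM, POX_f07705 from 21.4, 26.6 and 15.2 to 60.9, 44.9 and 44.1 scaled FPKM and POX_f07706 from 27.2, 34.3 and 19.5 to 59.6, 68.1 and 53.7 scaled FPKM. Without the third Δku70 library the log2 fold change of POX_f07706 was 0.98 and it was not called. The other pairs were POX_a01930 with the β-xylosidase gene POX_a01929, POX_b03074 with the α-L-fucosidase gene POX_b03073, POX_d05704 with the α-L-arabinofuranosidase gene POX_d05705, and POX_c04185 with the endoxylanase gene POX_c04184. The last was at 557, 611 and 441 scaled FPKM in Δku70 and 858, 1176 and 994 in Δprmt3 and was not called (log2 fold change 0.91), except without the second Δku70 or the first Δprmt3 library (1.01 and 1.02), and POX_c04185 was not called without the second Δprmt3 library (0.99). Because the annotations cover only genes on the study's lists, an enzyme gene outside them would not be seen beside a transporter.

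Genes called in the same direction lay together on the chromosomes. Of 348 genes called higher, 106 (30.5%) were directly beside another gene called higher, and of 691 genes called lower with a known position, 275 (39.8%) were beside another called lower. Of all 9277 genes with a position, 7.13% were beside a gene called higher and 13.5% beside a gene called lower. Windows of 10 consecutive tested genes with at least 5 called in one direction merged into 4 raised and 16 lowered neighbourhoods, which held 22 of the genes called higher and 137 of those called lower. The number depended on the definition, with 1 raised and 9 lowered where 6 in 10 were required and 0 raised and 6 lowered where 8 in 20 were. Neighbourhoods were found by the values they are described by, so no test is given for them. Not every lowered neighbourhood fell throughout. In 1 on chromosome IV, 7 of 16 tested genes were called lower and 3 higher, with a median log2 fold change of -0.49. In 1 on chromosome VII, 7 of 16 were called lower and the summed levels overlapped. They were 3941, 2925 and 2982 scaled FPKM in Δku70 and 2574, 1928 and 3071 in Δprmt3. Chromosome III had the most, with 5 lowered and 1 raised, and 10.3% of its 1190 tested genes were called lower.

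**Figure D3:**
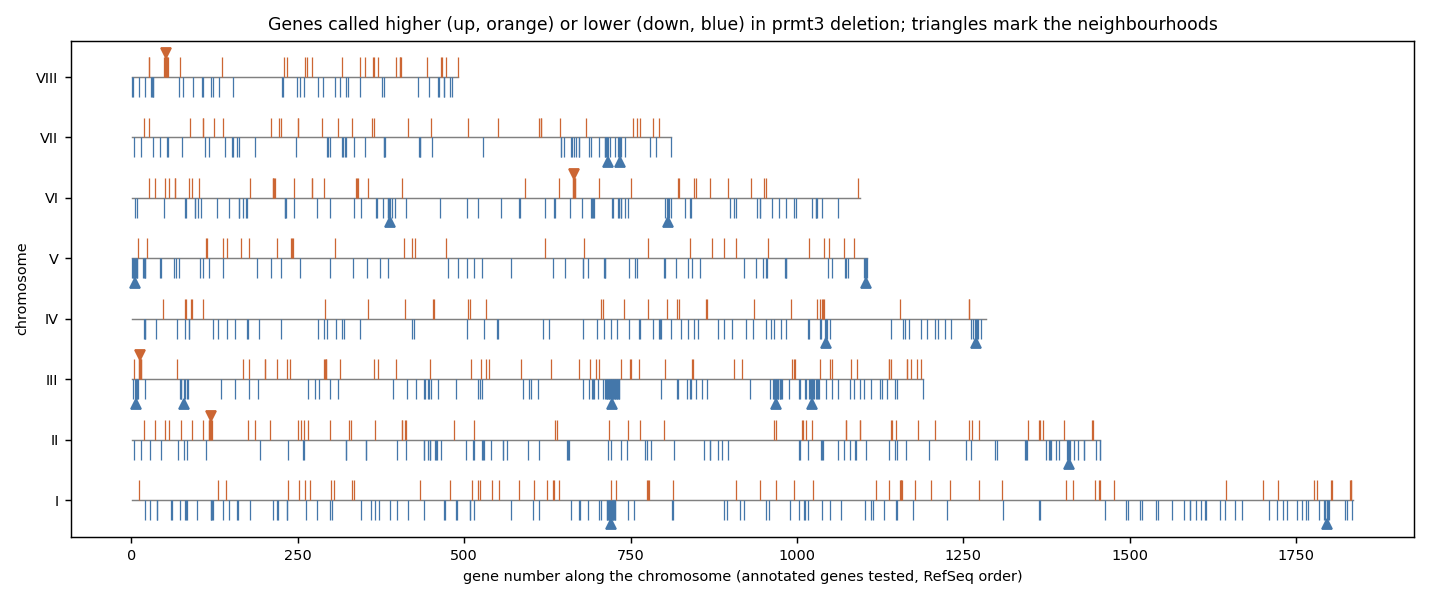
Every gene called in Δprmt3 along the 8 chromosomes in gene order (gene number on the horizontal axis), with orange ticks above each line for genes called higher and blue ticks below for genes called lower. Triangles mark the 4 raised and 16 lowered neighbourhoods, of which chromosome III carries 6 and the 2 ends of chromosome V carry 1 each.

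The longest was on chromosome III, from POX_c04229 to POX_c04253, where 23 of 25 tested genes were called lower, the last 22 of them without a gap. None of its genes carries an annotation term in the lists read here, which is so for most genes. Summed over the 25 genes the level was 6512, 5804 and 8869 in Δku70 and 309.8, 216 and 276 in Δprmt3 scaled FPKM, a separation with no overlap. The gene with the highest level, POX_c04248, had 909.7, 759 and 1114 scaled FPKM in Δku70 and 15.1, 7.55 and 13.2 in Δprmt3 (log2 fold change -6.31 ± 0.27, adjusted p = 1.7e-06), and the largest change was that of POX_c04245 (log2 fold change -6.40). Most members fell by a similar amount, with a median of -5.05 over the 25. The fall had an edge on one side. POX_c04228, directly before the first member, had 19.0, 17.1 and 18.0 scaled FPKM in Δku70 and 17.8, 20.6 and 22.6 in Δprmt3 (log2 fold change 0.17), and the 2 uncalled members, POX_c04230 and POX_c04231, were the second and the third from that edge, with log2 fold changes of 0.31 and -0.34. On the other side the next 2 genes, POX_c04254 and POX_c04255, were under 2 scaled FPKM in all 6 libraries, too low to show where the fall ended.

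A second stretch of chromosome III, POX_c04504 to POX_c04524, held 14 called genes among 19, with log2 fold changes from -6.70 to -2.02. The first member, POX_c04504, was called lower, from 114, 94.7 and 78.8 to 29.4, 13.5 and 28.8 scaled FPKM (log2 fold change -2.07 ± 0.30, adjusted p = 0.0015), and the other called members ran from POX_c04511 onward. POX_c04505, POX_c04506, POX_c04508 and POX_c04509, between them, were not called, with log2 fold changes of -0.16, 0.21, 0.25 and -0.12. The strongest expressed member, POX_c04513, went from 535, 512 and 722 to 32.4, 17.0 and 25.9 scaled FPKM (log2 fold change -4.58 ± 0.34, adjusted p = 3.2e-05). Annotated members were POX_c04515, a sugar transporter gene that went from 43.9, 45.2 and 55.2 to 3.07, 2.49 and 2.46 scaled FPKM, POX_c04517, with a winged helix repressor DNA-binding domain, and POX_c04524, with a homeodomain-like domain.

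In the third, POX_c04575 to POX_c04604, the lowered genes reached 0. Of 22 tested genes 13 were called lower, and 6 of the 13 were listed at 0 in all 3 Δprmt3 libraries. Of these 6, POX_c04584, POX_c04590 and POX_c04591 were under 0.6 scaled FPKM in Δku70 as well. POX_c04595 had 155, 165 and 169 scaled FPKM in Δku70 and 0.417, 0 and 0 in Δprmt3. POX_c04583 was at 32.9, 31.7 and 27.9 scaled FPKM in Δku70 and 0, 0 and 0 in Δprmt3, and POX_c04601 at 12.6, 17.7 and 15.1 scaled FPKM in Δku70 and 0, 0 and 0 in Δprmt3. In these genes the Δku70 libraries lay close together and the Δprmt3 libraries at or near 0. The loss was not uniform over the stretch: POX_c04580, between called genes, had 49.8, 46.9 and 60.8 scaled FPKM in Δku70 and 34.1, 46.8 and 40.3 in Δprmt3 (log2 fold change -0.38, not called), and POX_c04587 kept 303, 292 and 369 scaled FPKM in Δku70 and 39.7, 51.3 and 50.1 in Δprmt3 (log2 fold change -2.77 ± 0.12, adjusted p = 1.7e-06). POX_c04584, POX_c04590 and POX_c04591 and the called genes POX_c04575 and POX_c04604 were under 3 scaled FPKM in every library, where the fold change depends on the pseudocount. With a pseudocount of 1 none of them was called, and POX_c04604 was also lost without the second or the third Δku70 or the first or the third Δprmt3 library, at -2.88 to -2.26. POX_c04605, directly after the last member, was called higher, from 6.54, 5.51 and 6.63 to 13.3, 13.3 and 13.7 scaled FPKM, but not on FPKM without further scaling (0.94). RNA alone was measured, and whether the DNA of this stretch is intact in Δprmt3 was not tested.

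On chromosome I, POX_a00748 to POX_a00761 was made up of strongly expressed genes, and 13 of its 14 members were called lower by a moderate amount, between -2.60 and -1.16. Together they gave 51878, 45386 and 29802 in Δku70 and 13122, 17603 and 21636 in Δprmt3 scaled FPKM. POX_a00754, the highest in Δku70, went from 7528, 7169.5 and 4609.6 to 1865, 2413 and 3452 scaled FPKM (log2 fold change -1.33 ± 0.26, adjusted p = 0.0067). A single member went the other way: POX_a00755, between 2 lowered genes, went from 2056, 1831 and 933 to 3439, 5204 and 4555 scaled FPKM (log2 fold change 1.51 ± 0.30, adjusted p = 0.0069). Directly after the last member POX_a00762 also rose, from 1032, 1097 and 481 to 3235, 3551 and 3492 scaled FPKM (log2 fold change 2.07 ± 0.27, adjusted p = 0.00086), while the Zn2Cys6 gene POX_a00763 next to it was not called (log2 fold change 0.20, adjusted p = 0.40), and the endoglucanase gene POX_a00764 described above follows it. Over most of the 14 genes the third Δku70 library was the lowest of its strain and the third Δprmt3 library the highest of its strain, so the groups approached each other without overlapping.

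A lowered and a raised neighbourhood met near the start of chromosome III. The lowered one held 8 tested genes, of which 6 were called lower and 1 higher. From POX_c03483 to POX_c03487 all 5 genes were called lower, and from POX_c03488 to POX_c03492 all 5 were called higher, with no gene between. On the lowered side POX_c03484 went from 542, 638 and 649 to 59.4, 86.3 and 58.0 scaled FPKM (log2 fold change -3.18 ± 0.16, adjusted p = 2.8e-06), and POX_c03487, a sugar transporter-like gene, went from 90.5, 98.3 and 118 to 43.1, 44.9 and 36.1 scaled FPKM. On the raised side POX_c03488 went from 101, 80.1 and 94.8 to 357, 331 and 245 scaled FPKM, and POX_c03489 from 26.4, 21.1 and 18.6 to 121, 149 and 127 scaled FPKM (log2 fold change 2.59 ± 0.23, adjusted p = 9e-05). The next 3 genes are enzyme genes, the endoxylanase gene POX_c03490 and the α-L-arabinofuranosidase genes POX_c03491 and POX_c03492, with log2 fold changes of 1.31, 1.26 and 1.04. POX_c03493, after them, was not called (log2 fold change 0.32).

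Both ends of chromosome V were lowered. The first 9 tested genes of the chromosome, POX_e06153 to POX_e06162, held 8 called lower, and the last 5, POX_e07327 to POX_e07331, were all called lower. At the start POX_e06160 went from 3177, 2623 and 2716 to 44.7, 21.6 and 33.7 scaled FPKM (log2 fold change -6.47 ± 0.34, adjusted p = 4.1e-06), and POX_e06162 from 1269, 1133 and 1328 to 53.1, 35.3 and 55.3 scaled FPKM. POX_e06154, next to the outermost gene, carries a winged helix repressor domain and went from 1026, 809 and 938 to 147, 140.3 and 171 scaled FPKM (log2 fold change -2.59 ± 0.11, adjusted p = 1.3e-06). The gene directly after these first 9 was called higher at low levels (log2 fold change 1.41). It went from 0.651, 0.561 and 1.64 to 2.33, 2.56 and 2.41 scaled FPKM. A further 4 adjacent genes, POX_e06171 to POX_e06174, had log2 fold changes from -4.53 to -4.26. At the other end POX_e07327 went from 144, 118 and 143 to 12.9, 11.8 and 9.64 scaled FPKM, and POX_e07331, the last tested gene, from 44.1, 32.5 and 54.9 to 1.12, 0.416 and 0.316 scaled FPKM (log2 fold change -6.07 ± 0.43, adjusted p = 2.2e-05). Over the 16 ends of the 8 chromosomes, taken as the outermost 50 tested genes each, 97 of 800 genes (12.1%) were called lower and 47 (5.88%) higher, beside 7.43% and 3.72% of all annotated genes. The start of chromosome V contributed 14 of the 97, the most of any end.

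The strongest raised neighbourhood was POX_h09435 to POX_h09441 on chromosome VIII, where all 7 tested genes were called higher. Like most genes, none of them has an annotation term in the lists read here. Summed levels were 25.6, 212 and 163 in Δku70 and 23583, 24584 and 24431 in Δprmt3 scaled FPKM. POX_h09441 had 6.86, 77.1 and 38.4 scaled FPKM in Δku70 and 16313, 16155 and 16356 in Δprmt3 (log2 fold change 9.21 ± 0.74, adjusted p = 4.7e-05). POX_h09435 went from 0.641, 1.18 and 1.23 to 500.2, 506 and 488 scaled FPKM. POX_h09436 stood at 0 in each Δku70 library and had 128, 118 and 79.0 scaled FPKM in Δprmt3. The directly flanking genes, POX_h09434 and POX_h09443, were under 2 scaled FPKM in every library and were not called. The next gene on each side did not follow: POX_h09433 had a log2 fold change of 0.11, and POX_h09444 one of 0.15. In Δku70 the first library was the lowest for 5 of the 7 genes and far below the others for POX_h09440, at 12.7, 123 and 112 scaled FPKM in Δku70 and 4575, 5789 and 5663 in Δprmt3. Without it the log2 fold change of POX_h09441 was 8.22.

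The remaining raised neighbourhoods differed in level. POX_b02059 to POX_b02064 on chromosome II held 5 called genes among 6. Its POX_b02060 reached the highest level of any raised annotated gene, from 13.998, 178 and 137 to 20358, 19782 and 21486 scaled FPKM (log2 fold change 8.20 ± 0.81, adjusted p = 0.00016), and the gene beside it, POX_b02061, went from 2.55, 10.5 and 4.79 to 1471, 1936 and 1812 scaled FPKM. As in the stretch on chromosome VIII, the first Δku70 library was the lowest. In POX_f08056 to POX_f08060 on chromosome VI all 5 genes rose by between 1.64 and 2.12 on the log2 scale, led in level by POX_f08057, from 567, 612 and 319 to 2393, 2108 and 1789.9 scaled FPKM. The last of them, POX_f08060, was not called without the first Δprmt3 library (1.69).

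Shorter runs of adjacent called genes added to these. Counting 3 or more adjacent genes called in one direction gave 13 raised and 33 lowered runs, a definition chosen after the data were seen. In the raised run POX_f07574 to POX_f07577 on chromosome VI, POX_f07575 had 90.9, 1117 and 889.9 scaled FPKM in Δku70 and 12597, 16749 and 15399 in Δprmt3 (log2 fold change 5.04 ± 0.81, adjusted p = 0.0023), and 3.89 without the first Δku70 library, which was again the lowest. In POX_a01211 to POX_a01214 on chromosome I, POX_a01211 went from 32.6, 27.7 and 28.0 to 1323, 2686 and 2149 scaled FPKM (log2 fold change 6.06 ± 0.25, adjusted p = 1.3e-06). In POX_c03786 to POX_c03789 on chromosome III the 2 inner genes were already strongly expressed, and POX_c03788 went from 2346, 3756 and 3530.3 to 13878, 18145 and 17866 scaled FPKM (log2 fold change 2.39 ± 0.24, adjusted p = 0.00019). Of the lowered runs, POX_g08922 to POX_g08924 on chromosome VII had log2 fold changes from -6.77 to -6.47, with POX_g08923 at 641, 511 and 619 scaled FPKM in Δku70 and 7.19, 5.03 and 7.73 in Δprmt3.

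Of the 33 transcription factor genes called, 7 lay inside these neighbourhoods. Of all genes called, 22 of 348 called higher and 137 of 691 called lower with a known position did. The 7 included all 4 called genes among 12 with a winged helix repressor DNA-binding domain, POX_c04517, POX_d06137, POX_e06154 and POX_f07754. Each was lowered together with genes around it and is itself counted in the windows that define its neighbourhood. These 4 are on the study's list, and 0 of the 8 others was called. POX_f07754 opens the lowered stretch POX_f07754 to POX_f07760 and went from 45.9, 37.0 and 32.7 to 1.03, 0.416 and 0.292 scaled FPKM (log2 fold change -5.97 ± 0.36, adjusted p = 1e-05), while POX_f07753, directly before it, was not called (log2 fold change 0.32). The C2H2 gene POX_c03558, taken as brlA, an activator of conidiophore development in related fungi, lies in POX_c03551 to POX_c03564, where 6 of 11 genes were called lower, and had 145, 148 and 172 scaled FPKM in Δku70 and 9.93, 3.19 and 4.50 in Δprmt3 (log2 fold change -4.86 ± 0.36, adjusted p = 2.9e-05). The Myb gene POX_e07032, taken as flbD, and the TEA/ATTS gene POX_e06958, taken as abaA, are both of the same developmental pathway. They fell by 1.26 and 1.38 on the log2 scale and lie in no neighbourhood. These names and brlA were assigned by elimination from the annotation terms. The study reports lower brlA, abaA and flbD transcripts, so the falls are not independent evidence. Of 4 Myb genes, 3 lay above 0 and were not called. The actin gene POX_d06005, the study's internal reference gene, was not called. It had 34.8, 34.5 and 37.0 scaled FPKM in Δku70 and 36.8, 31.8 and 34.8 in Δprmt3. The share of conidiating cells was not tested. Over the classes of factor, 5 of 56 Zn2Cys6 genes were called higher and 7 lower, 2 and 5 of 25 C2H2 genes, and 6 and 8 of 46 others, beside 3.72% and 7.43% of all annotated genes. These factors carry a term only because the study called them here or in another mutant sharing the Δku70 libraries. Their shares therefore cannot be read as an excess over all annotated genes.

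The Zn2Cys6 factors, a family of DNA-binding regulators found in fungi, changed at mostly low levels. POX_f08028 had 9.99, 8.73 and 13.7 scaled FPKM in Δku70 and 0, 0 and 0.657 in Δprmt3 (log2 fold change -5.77 ± 0.79, adjusted p = 0.0010), POX_d05821 was at 1.99 to 2.74 scaled FPKM in Δku70 and listed at 0 in all Δprmt3 libraries, and the raised gene of highest level, POX_a00812, went from 36.9, 48.4 and 42.3 to 107, 99.0 and 95.7 scaled FPKM. Among the C2H2 genes POX_c04377 went from 403, 431 and 502 to 109, 31.7 and 35.6 scaled FPKM (log2 fold change -3.15 ± 0.40, adjusted p = 0.00067) and POX_b03034 from 68.2, 89.0 and 102 to 17.9, 19.4 and 20.2 scaled FPKM, while POX_d05267 rose, from 24.8, 25.2 and 18.6 to 121, 76.4 and 74.2 scaled FPKM (log2 fold change 1.96 ± 0.28, adjusted p = 0.0013). In POX_c04377, POX_d05267 and POX_d05661 the first Δprmt3 library was the highest, and every Δprmt3 library still lay outside the Δku70 range. Without that library POX_d05661 was at 0.97 and not called. Of 9 bZIP genes 2 were called higher, beside 3.72% of all annotated genes, and both are on the study's list. POX_a00957 went from 48.0, 49.7 and 24.4 to 129, 78.0 and 91.3 scaled FPKM. The other, POX_e06603, went from 3.17, 4.05 and 5.51 to 28.8, 6.97 and 9.52 scaled FPKM. POX_a00957 was not called without the third Δku70 library (0.99), and POX_e06603 kept its call only when the second Δprmt3 library was the one left out, and was otherwise at 0.96 to 1.76. The homeobox gene POX_d05597 fell by a similar amount in every library, from 346, 351 and 352 to 159, 148 and 171 scaled FPKM (log2 fold change -1.14 ± 0.07, adjusted p = 1e-05). Outside the study's list for this comparison, 1 of 97 factor genes was called higher and 2 lower. Without the first Δprmt3 library 3 of the 46 others were called higher in place of 6.

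Finally, the largest changes among well-expressed genes were in genes without an annotation term. The classes above hold only 88 enzyme, 41 sugar transporter and 127 transcription factor genes of 9363 tested, so lacking a term is common by itself. The 8 largest rises fell mostly in the stretches above. Outside them, POX_b02614 had 2.99, 16.9 and 10.9 scaled FPKM in Δku70 and 6754, 7758 and 7147 in Δprmt3 (log2 fold change 9.76 ± 0.52, adjusted p = 4.5e-06), and POX_e07176 stood at 0 in each Δku70 library and had 38.8, 44.8 and 45.1 scaled FPKM in Δprmt3. The 8 largest falls were more scattered. POX_b03265 dropped from 4863, 3814 and 2308 to 20.1, 15.6 and 2.97 scaled FPKM (log2 fold change -8.47 ± 0.74, adjusted p = 8.1e-05), and POX_b02217 had 169, 126 and 91.2 scaled FPKM in Δku70 and 0.626, 0.142 and 0 in Δprmt3. Among strongly expressed genes, chosen here after their values were seen, POX_d05151, POX_a00279 and POX_a00166 were called lower. POX_d05151 had 11221, 11623 and 11099 scaled FPKM in Δku70 and 1374, 415 and 762 in Δprmt3 (log2 fold change -3.90 ± 0.36, adjusted p = 0.00011), POX_a00279 9101, 8909.5 and 12136 scaled FPKM in Δku70 and 927, 431 and 783 in Δprmt3 and POX_a00166 9496, 7946 and 8645 scaled FPKM in Δku70 and 642, 336 and 565 in Δprmt3. In all 3 the libraries of the strains did not overlap.

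**Figure D4:**
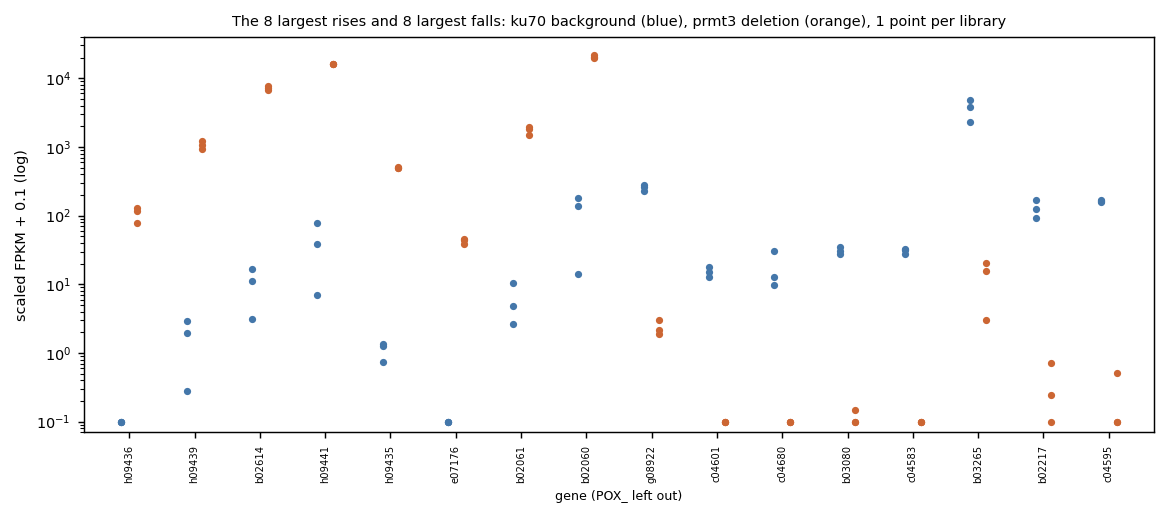
Scaled FPKM plus 0.1 (log axis) of the 8 genes with the largest rises (left) and the 8 with the largest falls (right), including prmt3 itself (POX_b03080), with 1 point per library in blue for Δku70 and orange for Δprmt3. The Δprmt3 libraries lie close together for the raised genes, and the first Δku70 library is the lowest point for POX_b02060, POX_b02614 and POX_h09441.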

How the data were processed

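RNA was sequenced from mycelia of 3 Δprmt3 and 3 Δku70 cultures. The authors trimmed reads with SOAPnuke, mapped them to the P. oxalicum genome with HISAT2 and estimated expression with RSEM and Bowtie2, and the deposited FPKM values were used as they stand; the genome build is not given in the sources used here. Read counts were not analysed. Each library was divided by its median-of-ratios factor, taken over 9335 features above 0 in all 9 libraries, and values were fitted as log2(scaled FPKM + 0.1) with limma 3.58.1 in R 4.3.3 (lmFit, eBayes with trend), over 10578 features and all 9 libraries of the 3 strains, with Benjamini-Hochberg adjustment. The pseudocount makes the fold changes of low genes too small, and a level of 0 can be a failed estimate. Low values gave no firm estimate of relative depth: multiplied by gene length, their 10% quantile differed 1.39-fold between the 6 libraries and their most frequent value 4.76-fold. The p-values rest on the spread between libraries of a strain, pooled over the 3 strains and moderated across genes. Whether that spread covers differences between mutant clones is not known.

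Annotation terms came from the lists of genes that the study called in this comparison or in another mutant sharing the Δku70 libraries, and the values in those lists were not used. Gene order came from RefSeq (ASM172317v3), which matched 9277 of 9363 tested genes. Members and lists were chosen with earlier results of these data known. Genes were named by rule: prmt3, other arginine methyltransferases, the gene of the labels and 10 genes on each side of prmt3; genes named in the study's RNA-sequencing results; up to 4 called members per class and direction with a mean of at least 5 scaled FPKM; the 8 largest rises and falls with a mean of at least 10; the ends, highest and most changed gene of each neighbourhood; and conidiation markers. Of the 163 genes of the rule 108 are named, and a further 66 lie outside it and were chosen after their values were seen. Genes with near-identical copies may share reads.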

Additional observations from a re-analysis of the deposited data

How the results depend on the processing

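Without further scaling of FPKM, where the median annotated gene was at -0.13 on the log2 scale in place of 0.01, 270 genes were called higher and 807 lower, and with quantile normalization, where it was at 0.10, 398 and 594. Over the other alternatives the numbers of annotated genes called moved less: with a pseudocount of 1 they were 302 and 614, and with the 6 libraries alone 286 and 603. Leaving out 1 library at a time gave 316 to 360 genes higher and 635 to 696 lower. Of the class counts, without further scaling 2 cellulose genes in place of 4 were called higher, and Zn2Cys6 factors went to 2 higher and 11 lower. With the 6 libraries alone 0 xylan genes, 0 β-1,3-glucan and SUN genes and 3 other transcription factors were called, lower, lower and higher in that order. Leaving out 1 library gave 1 to 4 cellulose genes higher, 0 to 2 xylan genes lower, 0 to 1 β-1,3-glucan and SUN genes lower and 3 to 5 other factors higher. Neighbourhoods numbered 1 higher and 9 lower with at least 6 called in 10, 0 and 6 with 8 in 20, and 13 and 33 as runs of at least 3 adjacent genes, the last chosen after seeing the data.

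Of 136 called genes named, 109 kept their call under all 14 alternatives, and 27 lost it under at least 1, none changing direction. With the 6 libraries alone 11 lost it, POX_b03436 (-1.70) among them, and with a pseudocount of 1, 7, among them POX_c04524 (-0.93). Among the 38 that were not called, signs turned for POX_b03081 (-0.10), POX_h09433 (-0.05), POX_h09444 (-0.01), POX_h09768 (-0.07) and POX_d05671 (-0.13) without further scaling, and for POX_d04867 (-0.25), POX_d05671 (-0.63) and POX_d06005 (0.00) with quantile normalization. Without 1 library they turned for POX_d05671 (-0.14 to 0.28 over the 6 left out in turn), POX_d06005 (-0.09 to 0.01), POX_g09366 (-0.34 to 0.01), POX_h09433 (-0.02 to 0.22), POX_h09768 (-0.15 to 0.57) and 2 genes near 0 FPKM, POX_c04254 (-1.07 to 0.00) and POX_h09443 (0.00 to 1.90).

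Libraries of the 2 strains that share a replicate number correlated at 0.06, -0.03 and 0.02 in their deviations from the strain means. These values show no pairing across the genes as a whole, and a batch shared in part of the genes was not tested. With the number as a replicate block 329 genes were called higher and 671 lower, 3 of the genes named lost their call (POX_b03090, POX_e06603 and POX_f08346), and each library did not correlate best with its own number throughout. Comparison of protein families by blastp and classes from RefSeq product names were not run, since sequences and product names were not at hand. Differences in low genes are limited by the depth, which is unknown in reads.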

Other observations

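Loci without a gene identifier followed the same pattern of more falls than rises. Of 1215 tested, 32 (2.63%) were called higher and 98 (8.07%) lower in Δprmt3. Among the 5 such loci with the highest levels the largest called rise was from 3712, 3508 and 4626 scaled FPKM in Δku70 to 22129, 25490 and 25974 in Δprmt3 (log2 fold change 2.64 ± 0.20, adjusted p = 3.9e-05 in limma). A second went from 11584, 10023 and 13952 to 21200.2, 28212 and 23679 scaled FPKM (log2 fold change 1.04), while another, not called, had 9806, 8267 and 10720 scaled FPKM in Δku70 and 8986, 9564 and 9927 in Δprmt3, with overlap. The locus of highest level split the Δku70 libraries, at 5.26, 38212 and 5.28 scaled FPKM, against 42397, 45832 and 48899 in Δprmt3, and was not called (adjusted p = 0.14 in limma). The identity of these loci is not given in the sources used here.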
